A study of Mus musculus with 8 samples.

Results

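The genes described here are 9 members of the retinoic acid pathway, namely the synthesis enzymes Aldh1a1, Aldh1a2 and Aldh1a3, the blood carrier of retinol Rbp4, the cellular carriers Crabp1 and Crabp2, the receptors Rara and Rarb, and the degrading enzyme Cyp26b1. They were chosen by gene symbol among the 16397 genes of the count table, and all 9 were found. Hippocampi were taken at E15.5 from C57Bl/6J embryos of both sexes. In the intrauterine growth restriction (IUGR) group the dam had carried, since E12.5, an osmotic pump that released U-46619, a thromboxane A2 analog that raises maternal blood pressure. In the sham group the dam had undergone the same surgery with a pump that held only the dilute ethanol vehicle, so both groups share the operation and an unoperated group was not analysed here. Each group holds 4 libraries of ribosome-depleted total RNA, T1-1, T1-3, T1-4 and T1-5 for IUGR and S1-4, S1-6, S3-1 and S3-4 for sham. All IUGR libraries carry the prefix T1 and the sham libraries S1 or S3, so prefix and group cannot be told apart. The labels do not say which embryos were littermates or what the prefixes stand for. The p values therefore set the group difference against the spread between these libraries, and whether that spread includes differences between dams is not known.

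Retinoic acid is made from vitamin A. Retinol travels in blood bound to Rbp4 and Ttr, enters cells through Stra6, and is oxidized to retinal by Rdh10, a step that Dhrs3 reverses. The Aldh1a enzymes oxidize retinal to retinoic acid, Crabp proteins carry the acid within the cell, receptors of the Rar and Rxr families bind DNA with it and regulate transcription, and Cyp26 enzymes break it down. In the embryonic forebrain the meninges are a known site of Aldh1a2, and Rarb is a classic direct target of the pathway as well as a receptor.

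Total counts on genes were between 12919546 and 16672463 in IUGR libraries and between 11212632 and 15405748 in sham libraries. Values are given as CPM, counts scaled to a common library total after edgeR's TMM adjustment, in which 1 read was worth 0.0615 to 0.0924 CPM. The 9 genes together took 0.00517 to 0.0147% of a library's counts, so they lie in the low range of the table. The test covered 13707 protein-coding genes whose counts averaged 10 or more and less than 50000 per library. Of these, edgeR's quasi-likelihood test called 200 at a Benjamini-Hochberg adjusted p of at most 0.05 and a change of at least 2-fold, 186 lower and 14 higher in IUGR. All 13 markers of the hippocampal neuron lineage were detected and tested, with 10 nominally lower in IUGR, 3 higher and 0 called (median log2 fold change -0.34). Of these, 2 were at an unadjusted p under 0.05 by edgeR. Markers of subpallium and striatum were detected as well, with 17 tested, 13 nominally higher in IUGR, 4 lower and 0 called. The 15 tested markers of choroid plexus epithelium were all lower in IUGR (4 of them called), with a score (mean log2 CPM of the list) of -0.24 to 3.67 in IUGR libraries and 5.04 to 5.68 in sham libraries. Libraries also differed in Xist, the RNA of the inactive X chromosome of female cells, which was at 948 to 1593 CPM in T1-3, T1-4, T1-5 and S1-6 and at 2.12 to 5.85 CPM in the other 4. This split (3 of 4 IUGR libraries against 1 of 4 sham libraries) and the choroid plexus difference moved with the groups. So did the cortical hem markers, of which 12 of 12 were lower in IUGR and 7 were called (score 2.37 to 3.81 in IUGR, 4.51 to 5.48 in sham), and general neuronal markers, of which 12 of 12 were nominally higher and 0 were called, with 7 at an unadjusted p under 0.05 (score 7.35 to 7.76 in IUGR, 6.88 to 7.23 in sham). Their part in the results below was not tested except where a fit with them as a covariate is given.

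None of the retinoic acid genes passed the test of a change between IUGR and sham hippocampi. Of the 9 genes, 7 passed the count criterion and 0 were called by edgeR, where 1.46% of all tested genes were called. At an unadjusted p under 0.05 the number was also 0, where 11.1% of all tested genes passed. DESeq2 and limma-voom, with the same count criterion, called 0 of these 7 as well, where they called 3.1% and 2.39% of all tested genes. The CPM values of the groups overlapped for all 9 genes, where the groups did not overlap for 7.14% of tested genes. Among the 7 tested genes 5 were nominally higher in IUGR and 2 lower, with a median log2 fold change of 0.16 beside -0.02 over all tested genes. The intervals are wide, and the data leave room for changes of 2-fold or more in Aldh1a2, Aldh1a3, Rarb, Cyp26b1 and, downward, Crabp1.

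**Figure D1:**
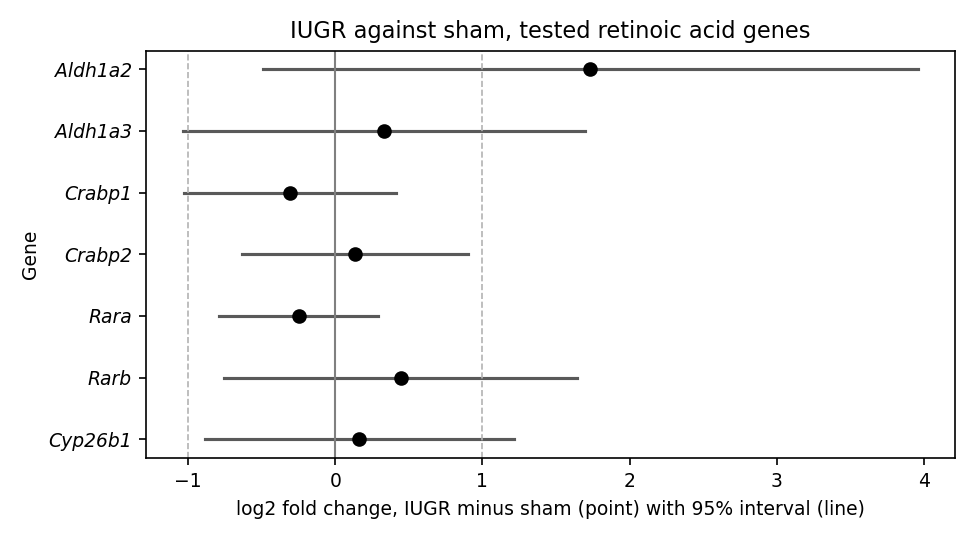
Log2 fold change of IUGR minus sham (x axis) for each of the 7 tested genes (y axis), with points for edgeR's estimate and lines for its 95% interval. Dashed lines mark 2-fold. Each interval includes 0, and the interval of Aldh1a2, from -0.49 to 3.96, is the widest of the 7.

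Levels between genes were compared per kilobase of annotated exon. Crabp1 stood highest, with a mean over the 8 libraries of 10.6 CPM per kb (range 4.52 to 15.6), followed by Crabp2 at 8.08 (4.36 to 15.1). Aldh1a2 came next at 4.52 (0.372 to 21.5), then the receptors Rara at 3.58 (2.17 to 4.84) and Rarb at 3.42 (0.623 to 5.00). Aldh1a3 averaged 2.85 (0.695 to 5.53) and Cyp26b1 2.13 (0.528 to 3.26). The place of Aldh1a2 rests on T1-3 (21.5 CPM per kb), and over the sham libraries alone its mean was 2.10 CPM per kb, below Rara (3.89), Rarb (2.90) and Aldh1a3 (2.52). Rbp4 and Aldh1a1 were at the floor of the table, with 0.244 (0.0566 to 0.458) and 0.121 CPM per kb (0.0304 to 0.225). Neighbours in this order overlapped in their ranges, with the exception of Cyp26b1 and Rbp4, whose ranges were apart.

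**Figure D2:**
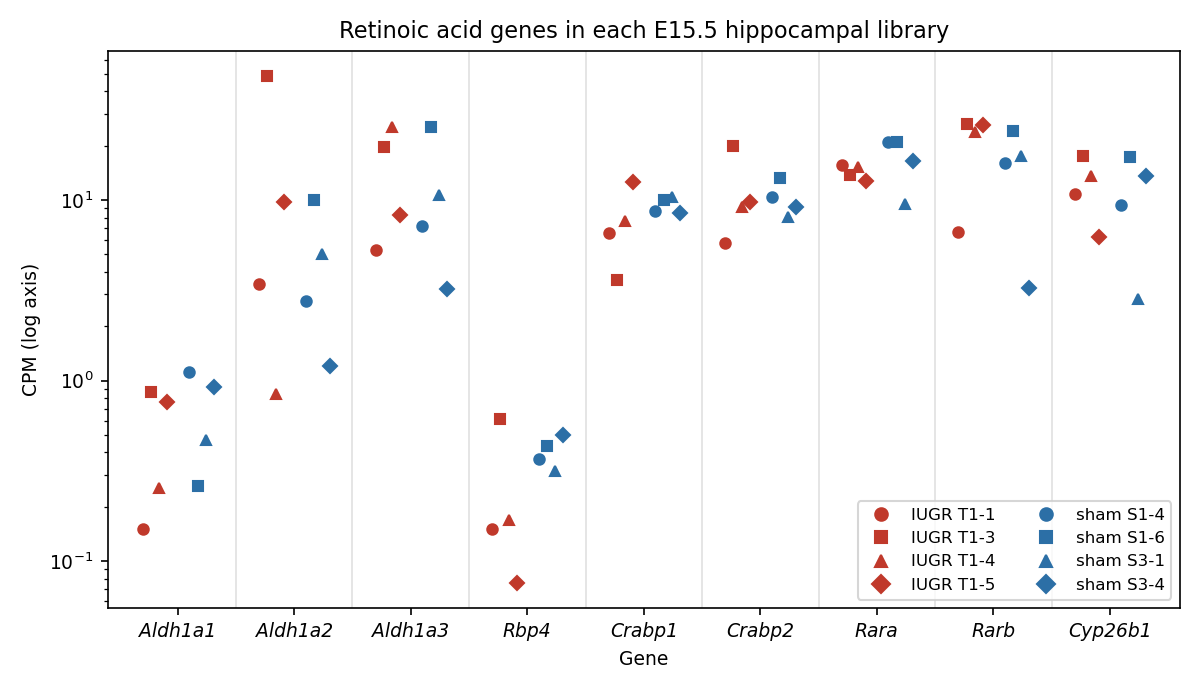
CPM (log axis) of each gene in each library, with IUGR in red, sham in blue and 1 marker shape per library within a group. The groups overlap for all 9 genes, and the points of Aldh1a2 run from 0.843 to 48.7 CPM within IUGR alone.

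Several of these genes varied widely among libraries of the same group. The within-group SD of log2 CPM was 1.89 for Aldh1a2, which is at percentile 99.8 of all tested genes. Aldh1a3 (1.13, percentile 98), Rarb (1.12, percentile 97.9) and Cyp26b1 (0.91, percentile 96.3) also lay beyond the 95th percentile of 0.81. Crabp2 (0.56), Crabp1 (0.52) and Rara (0.39) were closer to the median gene, whose SD was 0.28. Low counts add sampling error to such an SD, and the percentiles are not adjusted for expression level.

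Aldh1a2 (chr9:71215789-71296243 in GRCm38, plus strand, protein-coding) encodes the retinaldehyde dehydrogenase that is the main source of retinoic acid in the early embryo. The IUGR libraries T1-1, T1-3, T1-4 and T1-5 held it at 3.45, 48.7, 0.843 and 9.81 CPM. The sham libraries S1-4, S1-6, S3-1 and S3-4 held it at 2.77, 10.04, 5.02 and 1.21 CPM. Thus both the highest and the lowest library belonged to IUGR, and the sham values lay between them. The IUGR mean was 15.7 ± 22.3 CPM (SD, n = 4) and the sham mean 4.76 ± 3.85 (SD, n = 4). The log2 fold change was 1.73 (SE 1.00, 95% interval -0.49 to 3.96), with an adjusted p of 0.674 by edgeR. It was 0.94 (SE 1.14) by limma-voom, and 0.66 (SE 1.17) by edgeR with log2 CPM of Xist as a covariate, a fit added after seeing the data. With the choroid plexus score as a covariate, also added after seeing the data, it was 4.69 (SE 1.11, unadjusted p = 0.00162 and adjusted p = 0.0898 by edgeR). Because that score did not overlap between the groups, this fit cannot separate the score from the group. Without T1-3 and with group as the only term, the log2 fold change was 0.013 (SE 0.78), so the nominal increase rests on that library. With any other library left out it was 1.41 to 2.43, and without T1-4 it was 2.13 (unadjusted p = 0.0302 and adjusted p = 0.339 by edgeR). On all 8 libraries an exact two-sided permutation test on log2 CPM gave p = 0.657, where the smallest p that 4 against 4 libraries allow is 0.0286.

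The library that was highest in Aldh1a2 was also highest in markers of meningeal fibroblasts. Of 15 such markers, which include the collagens Col1a1, Col1a2 and Col3a1 and the transcription factors Foxc1 and Tbx18, 13 were highest in T1-3 and 12 were lowest in T1-4, the library with the least Aldh1a2. Their summed level was 3037 CPM in T1-3 and 117 in T1-4, against 475 and 890 CPM in the other IUGR libraries and 378 to 709 CPM in sham libraries, and none of the 15 was at 0 in any library. Between the groups 14 of the 15 were nominally higher in IUGR (median log2 fold change 1.01) and 0 were called by edgeR. At an unadjusted p under 0.05 there were 2, of opposite sign, Cemip (0.81) and Ogn (-1.49), the marker that was lower in IUGR. Over the 8 libraries, log2 CPM of Aldh1a2 and the meningeal score had a Pearson r of 0.941 (exact permutation p = 3.97e-04, adjusted p = 0.0278 over 70 relations of 7 genes with 10 marker lists). Spearman's rho was 0.857 (exact permutation p = 0.0107, adjusted p = 0.25), so the rank correlation did not pass the adjustment. Without T1-3 and T1-4, which lie farthest from the median score, r was 0.852 over 6 libraries, and with the group means removed it was 0.958. The microglial score gave an r of 0.924 with Aldh1a2 (exact permutation p = 0.00174, adjusted p = 0.0609; rho 0.857, exact permutation p = 0.0107, adjusted p = 0.25), and 0.757 without T1-3 and T1-4. The erythroid score gave an r of 0.835 (exact permutation p = 0.0111, adjusted p = 0.259), 0.667 without T1-3 and T1-4, and the highest rho of the lists, 0.881 (exact permutation p = 0.00724, adjusted p = 0.25). T1-3 was also highest in 7 of 8 microglial, 7 of 8 erythroid and 6 of 10 endothelial markers, and T1-4 was lowest in 4, 6 and 2 of them. With the meningeal score as a covariate, a fit added after seeing the data, the log2 fold change of Aldh1a2 was 0.40 (SE 0.35, edgeR adjusted p = 0.901). In bulk tissue, more cells of a type and more RNA per cell cannot be told apart.

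**Figure D3:**
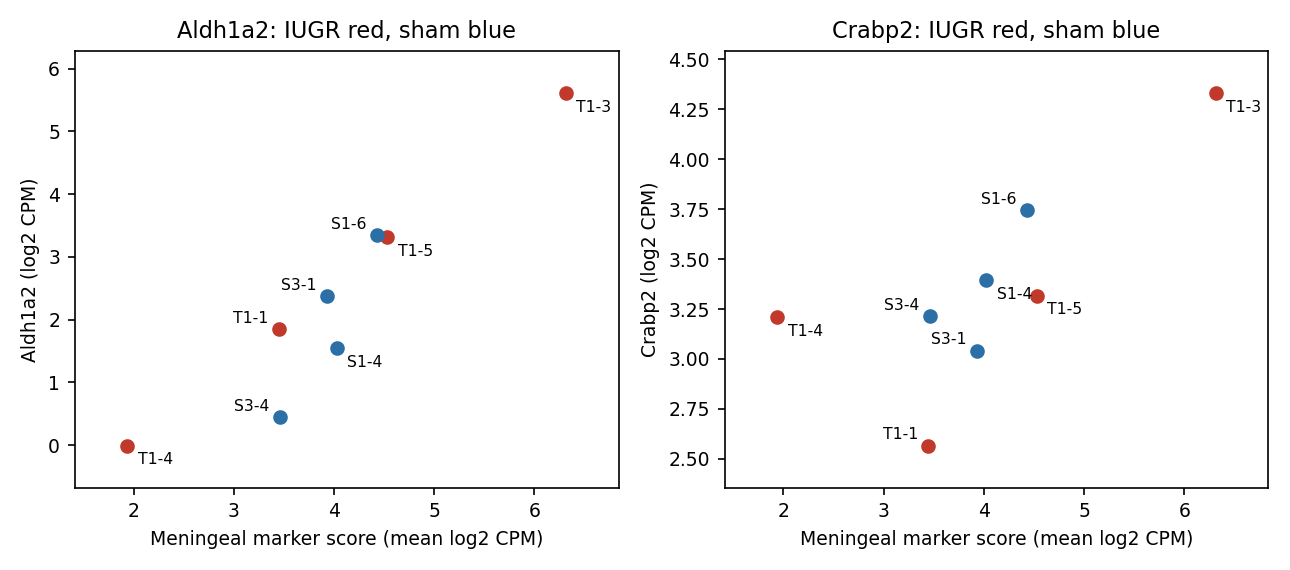
Log2 CPM of Aldh1a2 (left) and Crabp2 (right) against the meningeal marker score, the mean log2 CPM of 15 markers, with 1 point per library (IUGR red, sham blue). T1-3 is at the top right of both panels with a score of 6.31, and T1-4 has the lowest score, 1.94.

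Aldh1a3 (chr7:66390890-66427517, minus strand), a related enzyme known from the lateral ganglionic eminence of the forebrain, was highest in S1-6 and T1-4. The IUGR libraries, in the order T1-1, T1-3, T1-4 and T1-5, had 5.32, 19.7, 25.3 and 8.29 CPM. The sham libraries, in the order S1-4, S1-6, S3-1 and S3-4, had 7.21, 25.5, 10.7 and 3.21 CPM, and these orders hold for the genes that follow. T1-4, lowest in Aldh1a2, was therefore the highest IUGR library in Aldh1a3, and each group held 1 library near 25 CPM. The means were 14.6 ± 9.41 CPM in IUGR and 11.7 ± 9.74 in sham (SD, n = 4 each), with a log2 fold change of 0.33 (SE 0.62, edgeR adjusted p = 1.00) that turned to -0.063 without T1-4. It was 1.11 without S1-6 (unadjusted p = 0.0829 and adjusted p = 0.536 by edgeR), 1.13 against the S3 sham libraries alone and -0.16 against the S1 ones alone. T1-4 (5.27) and S1-6 (5.03) were also the libraries highest in the score of subpallium and striatum markers. Log2 CPM of Aldh1a3 had a Pearson r of 0.617 with that score (exact permutation p = 0.108, adjusted p = 0.756), or 0.139 without S3-4 and T1-4. Its r with the general neuronal score was 0.652 (exact permutation p = 0.0851, adjusted p = 0.745).

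Aldh1a1 (chr19:20492715-20643465, plus strand), the third enzyme, was near the limit of detection, with 2, 14, 3 and 10 reads in T1-1, T1-3, T1-4 and T1-5 and 12, 3, 6 and 13 reads in S1-4, S1-6, S3-1 and S3-4. Its mean count of 7.88 was under the criterion. In the fit without a count filter its log2 fold change was -0.39 (SE 0.63, edgeR adjusted p = 1.00), and no difference was detectable at this depth.

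Summed per kilobase, the 3 Aldh1a genes reached 25.9 CPM per kb in T1-3, 10.02 in S1-6 and 1.42 to 6.28 in the other 6 libraries. Among IUGR libraries Aldh1a2 made up 82.9% of that sum in T1-3 but 6.31% in T1-4 (with 69.0% in T1-5 and 56.3% in T1-1), whereas in sham its share was between 37.8 and 48.0%. Aldh1a3 supplied most of the rest, up to 92.8% in T1-4 and 49.0 to 55.2% in sham. The IUGR shares thus lay on both sides of the sham range. Aldh1a1 stayed at or below 2.45% in IUGR and reached 13.2% in S3-4, where it rested on 13 reads.

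**Figure D4:**
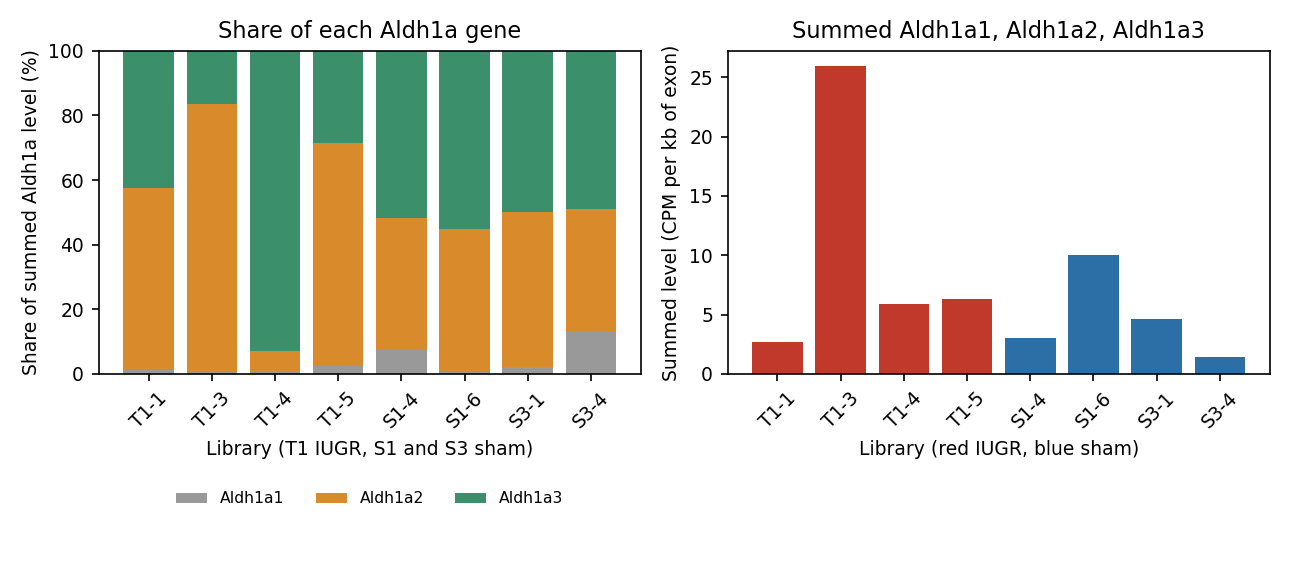
Left, share (%) of each Aldh1a gene in their summed level per kb of exon, by library, with bars stacked to 100%. Right, the summed level (CPM per kb) by library, IUGR in red and sham in blue. The Aldh1a2 share runs from 6.31 to 82.9% in IUGR and from 37.8 to 48.0% in sham.

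Rbp4 (chr19:38116629-38125281, minus strand) encodes the retinol carrier that the liver secretes into blood. It was counted 2, 10, 2 and 1 times in T1-1, T1-3, T1-4 and T1-5 and 4, 5, 4 and 7 times in S1-4, S1-6, S3-1 and S3-4. The IUGR mean was 0.252 ± 0.245 CPM and the sham mean 0.404 ± 0.0799 (SD, n = 4 each). With T1-3 left out, all IUGR values lay below the sham values, where 9.70% of tested genes had groups that did not overlap, but each rested on at most 2 reads. The fit without a count filter gave a log2 fold change of -0.57 (SE 0.64, edgeR adjusted p = 1.00).

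The cellular carriers varied among libraries to a like degree. Crabp1 (chr9:54764748-54773110, plus strand), which binds retinoic acid in the cytosol, was at 6.59, 3.63, 7.67 and 12.55 CPM in the 4 IUGR libraries. Its sham values kept to a narrow band of 8.69, 10.04, 10.4 and 8.48 CPM. As many as 3 of the IUGR libraries were therefore below every sham library and T1-5 was above them all. The log2 fold change was -0.31 (SE 0.32, 95% interval -1.03 to 0.41, edgeR adjusted p = 0.998). It was -0.66 without T1-5 (unadjusted p = 0.0441 and adjusted p = 0.475 by edgeR) and -0.040 without T1-3.

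Crabp2 (chr3:87948666-87953376, plus strand), which delivers retinoic acid to receptors in the nucleus, was at 5.77, 19.98, 9.10 and 9.81 CPM in IUGR. Sham libraries held 10.4, 13.2, 8.08 and 9.12 CPM. T1-3 was again the highest library, and the others ran from 5.77 CPM in T1-1 to 13.2 CPM in S1-6. Means were 11.2 ± 6.13 CPM in IUGR and 10.2 ± 2.23 in sham (SD, n = 4 each), and the log2 fold change was 0.14 (SE 0.35, edgeR adjusted p = 1.00), or -0.28 without T1-3. Its r with the meningeal score was 0.725 (exact permutation p = 0.0472, adjusted p = 0.499) and its rho 0.81 (exact permutation p = 0.0218, adjusted p = 0.382), which did not pass the adjustment. Without T1-3 and T1-4 its r was also 0.725. With the microglial score Crabp2 had a higher r of 0.792 (exact permutation p = 0.0317, adjusted p = 0.444), which was 0.488 without T1-3 and T1-4, and a rho of 0.595 (exact permutation p = 0.132, adjusted p = 0.711).

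Among the receptors Rara (chr11:98927818-98974942, plus strand), which is expressed widely, had the lowest within-group SD of log2 CPM of the tested members, although in sham alone it ranged more widely than Crabp1 and Crabp2. Its IUGR values were 15.6, 13.7, 15.2 and 12.7 CPM and its sham values 20.9, 21.1, 9.49 and 16.5 CPM. All IUGR values lay inside the sham range and below all sham libraries other than S3-1. The log2 fold change was -0.25 (SE 0.24, 95% interval -0.79 to 0.29, edgeR adjusted p = 0.98). Without S3-1 it was -0.45 (unadjusted p = 0.0256 and adjusted p = 0.338 by edgeR), against the S1 sham libraries alone it was -0.56, and against the S3 sham libraries alone it was 0.16.

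Rarb (chr14:16430839-16819156, minus strand) is the receptor whose own transcription retinoic acid raises through a direct repeat of the 6-base motif that receptor dimers bind. The members' promoter windows, 250 bases before to 50 after a start site in the RefSeq promoter table for GRCm38.p6, were searched on both strands for direct repeats of the unit AGGTCA or of its common variants, which are GGGTCA with a changed first base, AGTTCA with a changed inner base, and GGTTCA with both changes. Any pair of these units was accepted at a spacing of 1, 2 or 5 bases. Of the 9 genes 7 had a window there, and Aldh1a3 and Crabp2 were not searched. The Rarb window alone held a match, a repeat spaced by 5 bases at chr14:16575513-16575529 on the strand of the gene, which begins at position -53 from the start site. Such a repeat was found in 32 of 32851 windows of the table (0.0974%), and repeats spaced by 1 and 2 bases in 0.222% and 0.268%. Rarb's annotated span reaches beyond this start site, so the window covers only 1 of its starts. The 250 bases before the start are shown for Rarb (chr14:16575477-16575726, minus strand) with the repeat and its spacer in capitals, and for Cyp26b1 (chr6:84593811-84594060, minus strand), another gene known to respond to retinoic acid, whose window held no match of these letters:
Rarb: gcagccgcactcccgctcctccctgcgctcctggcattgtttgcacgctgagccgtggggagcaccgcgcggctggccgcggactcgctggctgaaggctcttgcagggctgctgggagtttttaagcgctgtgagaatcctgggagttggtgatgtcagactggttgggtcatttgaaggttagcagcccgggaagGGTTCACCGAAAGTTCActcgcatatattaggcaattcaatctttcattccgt
Cyp26b1: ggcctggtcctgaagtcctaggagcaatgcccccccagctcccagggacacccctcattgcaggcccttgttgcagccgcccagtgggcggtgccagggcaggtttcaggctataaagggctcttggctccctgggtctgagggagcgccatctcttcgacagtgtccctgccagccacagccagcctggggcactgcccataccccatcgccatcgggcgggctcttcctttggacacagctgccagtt

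Rarb was at 6.67 (T1-1), 26.3, 23.8 and 26.2 CPM in IUGR. Sham libraries had 16.1, 24.1, 17.6 and 3.28 CPM (S3-4). In each group a single library stood low, T1-1 in IUGR and S3-4 in sham, and 3 of the 4 IUGR libraries were near or above the highest sham library. The means were 20.7 ± 9.44 CPM in IUGR and 15.3 ± 8.71 in sham (SD, n = 4 each), with a log2 fold change of 0.44 (SE 0.54, 95% interval -0.76 to 1.64, edgeR adjusted p = 1.00). It was 0.11 without S3-4, 0.78 without T1-1 and 0.80 without S1-6, and 0.046 against the S1 and 1.03 against the S3 sham libraries alone. The Xist-high libraries T1-3, T1-4, T1-5 and S1-6 held Rarb at 23.8 to 26.3 CPM and the other 4 at 3.28 to 17.6 CPM, a description with no test. Rarb was the 1 gene of the 9 whose values were apart between these sets of libraries, as they were for 3.7% of all tested genes. With log2 CPM of Xist as a covariate, added after seeing the data, the log2 fold change of Rarb was -0.36 (SE 0.59, edgeR adjusted p = 1.00). Of Rarb's 5265 exonic bases, 1793 lie opposite exons of Top2b, a topoisomerase gene on the other strand that was at 1045 to 1587 CPM. The library kit kept the strand of the RNA but the strand setting of the counting is not given in the sources used here, and the part of Top2b reads in the Rarb counts was not tested.

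Cyp26b1 (chr6:84571414-84593908, minus strand) encodes a cytochrome P450 that clears retinoic acid. Its IUGR levels were 10.9, 17.5, 13.6 and 6.24 CPM. Its sham levels were 9.34, 17.3, 2.82 and 13.6 CPM. The groups covered much the same range, and S3-1, which was also lowest in Rara, had the lowest value. The means were 12.03 ± 4.72 CPM in IUGR and 10.8 ± 6.22 in sham (SD, n = 4 each). The log2 fold change was 0.16 (SE 0.47, 95% interval -0.89 to 1.21, edgeR adjusted p = 1.00), and it was -0.16 without S3-1 and -0.046 without T1-3.

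For the 7 tested members, the genes whose library-to-library pattern was most alike were sought among 10865 tested genes that averaged 100 counts or more, by Pearson r of log2 CPM over the 8 libraries after removal of the group means. Aldh1a2 was followed most closely by Slc22a6 (r = 0.982), Cxcl12 (0.980) and Slc6a13 (0.979), of which Slc6a13 is on the list of meningeal markers. Crabp2 was closest to Reck (0.980), Dock5 (0.966) and Fbln2 (0.964). Aldh1a3 was closest to H2-K1 (0.976), Sema4a (0.953) and Rap1gap (0.947), and Rarb to Zcchc12 (0.973), Trank1 (0.965) and Dpm3 (0.950). Cyp26b1 was closest to Naa60 (0.992), Nat6 (0.986) and Tnfaip1 (0.986). For Rara the nearest were Intu (0.984), Cux1 (0.977) and 4931406P16Rik (0.977), and for Crabp1 Helq (0.956), Dcaf17 (0.948) and 2700097O09Rik (0.948). Each of these r values is among the highest of 10865 and is given as a description. Among pairs of tested members the highest r by the same measure were 0.824 for Aldh1a3 with Rarb and 0.815 for Rara with Cyp26b1.

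The rest of the pathway was taken from lists of 62 further genes, of which 40 were in the table and 37 were tested. Of these 37, 0 were called by edgeR, 26 were nominally lower in IUGR and 11 higher, and the median log2 fold change was -0.09. At an unadjusted p under 0.05 there were 2, Bco2 and Nr2f1, which were also the 2 whose groups did not overlap. These 2 of 37 genes are a smaller share than the 11.1% and 7.14% of all tested genes that met these criteria. Bco2, a carotenoid-cleaving enzyme, ranged from 0.599 to 1.29 CPM across IUGR libraries and from 1.39 to 3.14 CPM across sham libraries, a log2 fold change of -1.22 (SE 0.38, edgeR adjusted p = 0.187) on a mean count of 19.4. Nr2f1, an orphan nuclear receptor and cortical patterning factor that responds to retinoic acid in cultured cells, was at 72.5, 32.9, 59.3 and 45.2 CPM in IUGR. The sham values were 143, 74.5, 148 and 119 CPM, so that S1-6 came close to T1-1. Its log2 fold change was -1.20 (SE 0.27) with an edgeR adjusted p of 0.0584, just above the threshold of 0.05.

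Genes that act next to the members were likewise not called. Among 17 tested genes of retinol and retinal handling 13 were nominally lower and 4 higher (median log2 fold change -0.12). Rdh10, which makes retinal for the Aldh1a enzymes, ranged from 16.6 to 48.2 CPM across IUGR and from 33.6 to 49.1 CPM across sham libraries (log2 fold change -0.52, SE 0.30, edgeR adjusted p = 0.663). Dhrs3, which turns retinal back to retinol, ranged from 2.44 to 11.9 CPM across IUGR and from 8.27 to 10.4 CPM across sham libraries (log2 fold change -0.61, SE 0.41, edgeR adjusted p = 0.778). The uptake receptor Stra6 had a log2 fold change of -0.35 (SE 0.47). The other receptors Rarg, Rxra, Rxrb and Rxrg had log2 fold changes of 0.14, -0.19, 0.030 and 0.27, and that of Rxrb had the smallest SE, 0.11. All 8 tested co-factor and carrier genes and all 12 tested target genes were likewise not called, with medians of -0.08 and -0.20. Cyp26a1 and Cyp26c1, the other degrading enzymes, and the Hox genes of the target list were not found by symbol in the count table and could not be tested.

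**Figure D5:**
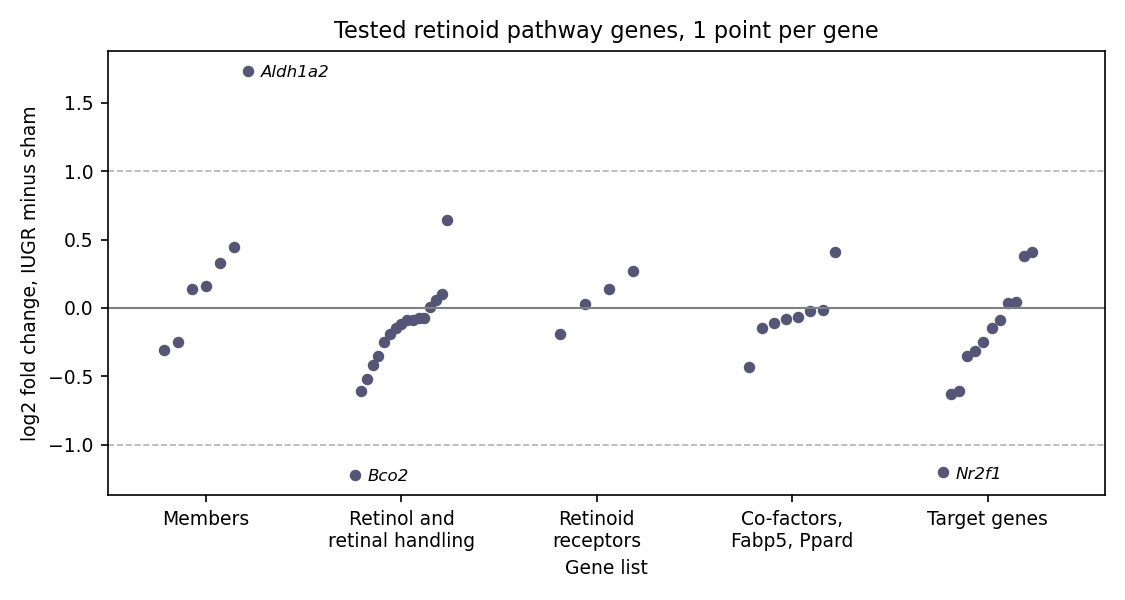
Log2 fold change of IUGR minus sham (y axis) for the 7 tested members and the tested genes of the pathway lists (x axis), 1 point per gene and list, with genes that belong to a pair of lists drawn in both. Dashed lines mark 2-fold. Aldh1a2 (1.73), Bco2 (-1.22) and Nr2f1 (-1.20) lie beyond them and none of the points was called.

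Ttr, the blood partner of Rbp4 and in the brain the foremost product of the choroid plexus, exceeded the criterion with a mean count of 51566.4. It was at 25.4, 966, 10.2 and 594 CPM in T1-1, T1-3, T1-4 and T1-5 and at 10851, 6919, 9993 and 4550 CPM in S1-4, S1-6, S3-1 and S3-4, so its groups were far apart, as they were for the score of the other choroid plexus markers. The fit without a count filter gave Ttr a log2 fold change of -4.32 (SE 1.16, edgeR adjusted p = 0.107). With the choroid plexus score as a covariate 0 members were called. Beside the value given for Aldh1a2, the log2 fold change was 1.08 (SE 0.86) for Rarb. For Crabp2 it was 1.02 (SE 0.49, unadjusted p = 0.0611 and adjusted p = 0.447 by edgeR). For Cyp26b1, Aldh1a3, Crabp1 and Rara it was 0.099, 0.0061, -0.097 and -0.39. The score did not overlap between the groups, so this fit cannot separate the score from the group.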

How the data were processed

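The authors isolated total RNA from E15.5 hippocampi, removed ribosomal RNA, made strand-keeping libraries and sequenced single reads. They deposited raw counts per gene, without normalization, 1 column per library. The submitters' processing notes name Novoalign 2.8 and mm10; the counting program, annotation and strand setting are not given in the sources used here. Per the table itself, each of its 16397 genes reaches 10 counts in at least 1 library, and 273 identifiers had no match in GENCODE M21 and were left out.

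The 9 genes, the gene lists and the tests were chosen with earlier results of these data known. All 8 libraries entered the comparison, and each pair within a group differed by more than sampling noise (chi-square per degree of freedom 21.3 to 61.4 over 12 pairs). The main test was that of edgeR 4.0.16 in R 4.3.3 (TMM, quasi-likelihood, group as the only term, Benjamini-Hochberg over all 13707 tested genes). The threshold was an adjusted p of at most 0.05 and an absolute log2 fold change of at least 1. Log2 CPM used a prior count of 2, standard errors were derived from the F statistic, and 95% intervals use its t quantile. Genes named beside the members are pathway genes that were called, changed by at least 2-fold or act next to a member, and the 3 genes of highest r per member, apart from an item that is not reported here. Alternatives were other scalings, DESeq2 1.42.0, limma 3.58.1 (voom), other count filters, every biotype, the adjusted p alone, each library left out and each sham prefix alone. In simulated data 200 of 13707 genes, all with mean counts of at least 50, were changed by 4-fold. Of these edgeR recovered 200, with 4 false calls. The simulated counts had the spread that edgeR's trend gives at each expression level. Aldh1a2, Aldh1a3, Rarb and Cyp26b1 varied more than most tested genes, and recovery in genes of such spread was not tested. Recovery of smaller changes was not tested either.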

Additional observations from a re-analysis of the deposited data

Results flagged for a closer look

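Each of the 9 genes and 10 marker scores was examined in each group of 4 libraries for a highest or lowest library that stands off, 38 groups in all, of which chance would mark about 1 in 20. In the IUGR group the lowest Rarb value, 6.67 CPM in T1-1 against 23.8 to 26.3 CPM in the others, had a gap of 0.871 of the group's range, above Dixon's 95% critical value for 4 samples. The erythroid marker score in the IUGR group was set off at the low end by T1-4, at 5.18 against 6.71 to 6.93, with a gap of 0.875 of the range.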

How the results depend on the processing

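No member was called under any of the 22 alternatives, and the direction of Crabp1 held under all 21 of its own. The number of genes called by edgeR over the whole table (200) was 73 at a mean count of at least 50, 425 by DESeq2's Wald test and 328 by limma-voom, and from 41 to 298 with a library left out. It was 0 against the S1 sham libraries alone (1053 genes at an unadjusted p under 0.05) and 2 against the S3 ones. With a covariate added after seeing the data it was 0 for Xist (966 genes at an unadjusted p under 0.05), 9 for the choroid plexus score and 446 for the meningeal score. The number of members whose groups did not overlap was from 0 to 1 with a library left out (Rara without S3-1, Rbp4 without T1-3, Crabp1 without T1-5) and 1 (Rara) against S1 alone, where 8.43 to 11.1% and 15.6% of all tested genes did not overlap. Signs of log2 fold changes turned against S1 alone for Aldh1a3 (-0.16), Crabp2 (-0.076) and Cyp26b1 (-0.15), and against S3 alone for Rara (0.16). With Xist as a covariate they turned for Aldh1a3 (-0.45), Crabp2 (-0.34), Rarb (-0.36) and Cyp26b1 (-0.10). With a library left out the range was -0.063 to 1.11 for Aldh1a3, -0.28 to 0.38 for Crabp2 and -0.16 to 0.51 for Cyp26b1. The cause was not tested. The numbers 1 and 4 recur in library names of both groups, but nothing ties them to a litter or batch, and the deviations of same-numbered libraries from their group means had r of -0.109 (T1-1, S3-1), -0.085 (T1-4, S1-4) and 0.085 (T1-4, S3-4) across genes. With that number as a replicate block, added after seeing the data, T1-3, T1-5 and S1-6 have no partner, 479 genes were called, and signs turned for Aldh1a2 (-0.83), Crabp2 (-0.26) and Rara (0.14), while Aldh1a3 was at 1.05 and Cyp26b1 at 0.93 (unadjusted p = 0.0541 and adjusted p = 0.452 by edgeR). Depth limits Aldh1a1 and Rbp4, which rest on at most 14 and 10 reads per library, and they were fitted only without the count filter.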
